A study of Mus musculus with 6 samples.

Results

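The genes described here are 57 genes of mitosis and the mitotic spindle, a list of names by function, chosen with earlier results of these data known, and all 57 were found by name on the array, where they hold 78 of 55681 probes. They were measured in basal cells of the mouse prostate, sorted from 6-day-old male FVB/N mice that carry the Tg 11.5kb-GFP transgene, in which a promoter fragment of s-SHIP, a short form of the phosphatase gene Inpp5d, drives green fluorescent protein. Both groups were LSC cells, which lack lineage markers and carry Sca-1 and CD49f, from untreated transgenic mice: 3 samples of LSC GFP+ cells, in which the promoter fragment is active, and 3 samples of LSC GFP- cells, in which it is not. The comparison asked how the cells with s-SHIP promoter activity differ in expression from the other basal cells of the same gate. The samples are described as independent, the number of animals behind each is not given in the sources used here, and 1 Agilent array was hybridised per sample.

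Cells enter mitosis when cyclin-dependent kinase Cdk1 is switched on by cyclins A and B and by the Cdc25 phosphatases. Condensin then folds the chromosomes, kinetochores attach them to spindle microtubules, the spindle assembly checkpoint holds the cell until every chromosome is attached, and the anaphase-promoting complex releases separase, which cuts the rings that hold sister chromatids together. Most of these genes are transcribed late in the cell cycle through promoters with a cell cycle homology region and CCAAT boxes, so that their RNA is found mainly in dividing cells, and basal cells of the neonatal prostate divide while the ducts grow.

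RefSeq promoters of the GRCm38.p6 build were at hand for 48 of the 57 genes, 51 promoters in all, each of 300 bases, with 250 before and 50 after the start site. The letters TTTGAA or TTCGAA of the cell cycle homology region, searched on both strands, stood in 38 of the 51 promoters (74.5%), against 17.6% of 21263 protein-coding promoters of the same length. CCAAT, also searched on both strands, stood in 39 of the 51 (76.5%), against 38.2% of all. Both stood in 34 promoters (66.7%), against 7.11% of all. A match of either motif may share letters with a match of the other, and a match is a description of the letters only. Of the genes raised at an unadjusted p under 0.05 all 6 with a promoter at hand hold both. Of the 43 promoters of genes tested but not raised at that p, 62.8% do. At least 2 CCAAT boxes stood in 1 of the 6 (16.7%) and in 55.8% of the 43. A relation between the motifs and the differences was not tested. The 250 bases before the start site of 4 of these 6 are printed 5′ to 3′ on the gene's strand, with both motifs in capitals: Top2a (chr11:99024190-99024439, minus strand), which holds 4 homology regions and 6 CCAAT boxes in this stretch, and Kif11 (chr19:37376132-37376381, plus strand), Espl1 (chr15:102296043-102296292, plus strand) and Ncapg (chr5:45669675-45669924, plus strand), which each hold 1 of either. They show repeated matches of both motifs in Top2a and a single match of each in the others. The spacing between matches was not analysed.
Top2a: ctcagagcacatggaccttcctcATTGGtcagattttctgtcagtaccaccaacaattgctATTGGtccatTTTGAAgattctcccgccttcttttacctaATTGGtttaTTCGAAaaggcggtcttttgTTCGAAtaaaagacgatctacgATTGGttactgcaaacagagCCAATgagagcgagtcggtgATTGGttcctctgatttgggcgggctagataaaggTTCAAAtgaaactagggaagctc
Kif11: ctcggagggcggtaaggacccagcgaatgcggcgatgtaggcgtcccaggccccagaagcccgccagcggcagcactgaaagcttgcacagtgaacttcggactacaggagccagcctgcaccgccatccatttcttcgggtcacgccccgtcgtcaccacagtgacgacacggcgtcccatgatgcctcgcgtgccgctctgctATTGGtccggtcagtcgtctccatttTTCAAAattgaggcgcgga
Espl1: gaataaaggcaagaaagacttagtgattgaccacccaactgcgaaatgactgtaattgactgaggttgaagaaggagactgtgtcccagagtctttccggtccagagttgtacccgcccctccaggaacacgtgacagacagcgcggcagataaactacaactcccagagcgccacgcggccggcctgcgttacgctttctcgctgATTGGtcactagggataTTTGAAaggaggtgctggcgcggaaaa
Ncapg: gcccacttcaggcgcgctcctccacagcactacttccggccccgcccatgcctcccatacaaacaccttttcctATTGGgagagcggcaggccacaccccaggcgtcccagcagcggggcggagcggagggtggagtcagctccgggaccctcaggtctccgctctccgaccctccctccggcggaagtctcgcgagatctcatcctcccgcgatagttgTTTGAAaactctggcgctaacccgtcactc

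**Figure D1:**
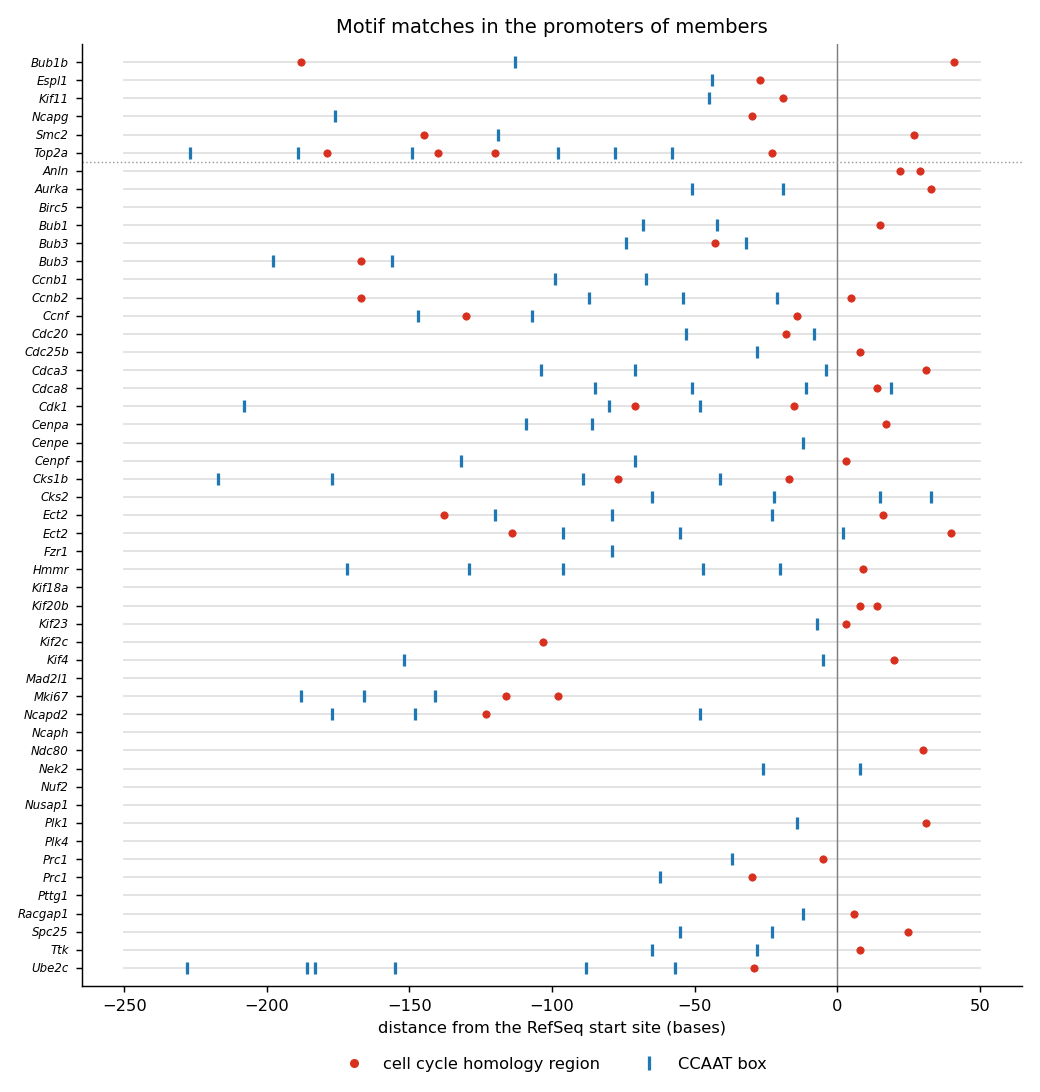
Positions of the motifs in the 51 promoters, 1 row per promoter, with the distance from the RefSeq start site in bases on the x axis. Red points mark 52 matches to the cell cycle homology region and blue bars 89 matches to CCAAT. Of the red points, 15 lie within the 100 bases before the start site and 24 after it. Of the blue bars, 55 lie within those 100 bases and 5 after the start site. The 6 promoters above the dotted line belong to genes higher in LSC GFP+ at an unadjusted p under 0.05.

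Of the 57 genes, 54 had a probe that exceeded the background clearly on every array of LSC GFP+, of LSC GFP- or of both, and were tested, 53 of them well above background on all 6 arrays. The 3 others were Aurkb, the catalytic kinase of the chromosomal passenger complex, which stayed near background on all 6 arrays, Cenpf, a kinetochore protein, well above background on 1 LSC GFP+ and 2 LSC GFP- arrays, and Kif18a, a motor that limits chromosome movement, on 2 arrays of each group. The signal of Aurkb was -5.99, -5.21 and -4.42 in LSC GFP+ replicates 1 to 3 and -6.12, -5.82 and -5.11 in LSC GFP- replicates 1 to 3. Here and below a level is log2 signal relative to the 75th percentile of its array, so that a level is compared between samples for 1 probe and the levels of different genes have no order, and a difference is LSC GFP+ minus LSC GFP- on the same log2 scale.

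The mitotic genes leaned toward LSC GFP+ cells as a list, by small amounts, and few passed a test on their own. Of the 54 genes tested, 48 had a positive difference (47 after quantile normalisation and 50 after scaling by the array median), where 48.6% of all 23874 genes tested did. The median difference was 0.27, against -0.0094 over all genes tested. With limma, 7 of the 54 rose at an unadjusted p under 0.05, where 3.55% of all genes did, and 0 fell, where 4.44% of all genes did. Of the 7, Espl1 had passed the filter through the LSC GFP+ arrays alone, and with probes well above background on all 6 arrays required, 6 of 53 rose, where 3.63% of 22190 genes did. After Benjamini-Hochberg adjustment over all probes, 0 of the 54 and 0 of all genes passed with limma, as with the methods' t-test, which called 8 of the 54 higher before adjustment (background 4.52%) and 0 lower (background 3.27%). The lowest adjusted p of the list, that of Cdc25c, was 0.407. In bulk samples a larger share of dividing cells and more of these RNAs in each dividing cell cannot be told apart.

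The count of 7 depended on single arrays. It was 1 without LSC GFP+ replicate 2, without LSC GFP- replicate 1 or without LSC GFP- replicate 2, 6 without LSC GFP+ replicate 1 or 3, and 10 without LSC GFP- replicate 3. The count of 1, or 1.85% of the 54, lay below the share of all genes that rose in the same fits, 2.43%, 2.65% and 2.35%. In the other fits, 3.71% and 3.05% of all genes rose without LSC GFP+ replicate 1 and 3, and 3.81% without LSC GFP- replicate 3. With the replicate number as a block in the fit, 13 of the 54 rose (background 6.67%) and 0 fell (background 7.97%), and 6 of the 7 were among the 13: Espl1 was lost, and Bub1, Bub3, Ccnb1, Foxm1, Kif4, Nek2 and Plk4 were gained. The number of genes with a positive difference stayed between 46 and 50 and the median difference between 0.20 and 0.35 over all 18 alternatives.

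Without overlap between the groups, 17 of these 54 had their LSC GFP+ samples on top, as 6.76% of all genes did, and 0 had them below, as 5.55% did. Between samples of the same number, 36 genes were higher in LSC GFP+ within all 3 numbers, where 21.2% of all genes were, and 3 were lower within all 3 (Ccnb2, Cdc25b and Pttg1), where 17.2% were. The median difference of the 54 genes was 0.25 within replicate 1, 0.41 within replicate 2 and 0.15 within replicate 3. Over all genes tested it was 0.08, -0.07 and -0.00018. Of the 54 genes, 46, 48 and 43 were higher in LSC GFP+ within replicates 1, 2 and 3 (85.2%, 88.9% and 79.6%), against 60.3%, 44.7% and 50% of all genes, so that the numbers did not share a baseline.

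**Figure D2:**
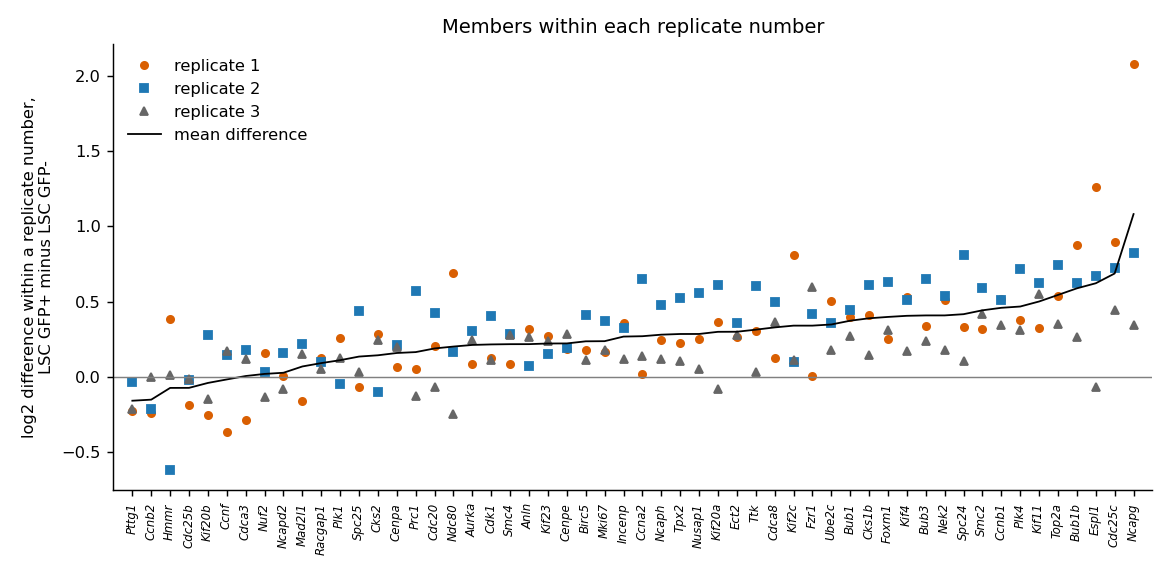
Log2 difference between the LSC GFP+ and LSC GFP- samples of the same replicate number on the y axis, for each of the 54 genes on the x axis in the order of their mean difference (black line). Within replicates 1, 2 and 3, 46, 48 and 43 of the 54 genes lie above 0, and Ncapg in replicate 1 stands highest at 2.08.

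Of Cdk1, its cyclins and its regulators, 1 of 11 rose and 8 had a positive difference. For this role and those below, 3.55% of all genes tested rose and 48.6% had a positive difference. In 6.76% of all genes the LSC GFP+ samples lay on top without overlap. Each role holds few genes, so its counts are descriptions. Cdc25c, a phosphatase that activates Cdk1 at the start of mitosis, was at -1.96, -2.11 and -1.86 in LSC GFP+ replicates 1 to 3 and at -2.86, -2.83 and -2.30 in LSC GFP- replicates 1 to 3. All LSC GFP+ samples lay above all LSC GFP- samples, and the difference was 0.69 ± 0.22 (SE), 1.61-fold (limma adjusted p = 0.407). Its call was lost without LSC GFP- replicate 1 or without LSC GFP- replicate 2.

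Ccnb1, cyclin B1, the main partner of Cdk1 in mitosis, was at 1.36, 1.62 and 1.73 in LSC GFP+ and 0.85, 1.11 and 1.38 in LSC GFP- replicates 1 to 3. The highest LSC GFP- sample just passed the lowest LSC GFP+ sample, although each LSC GFP+ sample was above its own number, and the difference of 0.46 ± 0.22 (SE) did not pass the test (limma adjusted p = 0.703, 95% interval -0.05 to 0.97). It passed with the replicate block, normexp background correction and the mean over its probes, and without LSC GFP+ replicate 1 or LSC GFP- replicate 3. Foxm1, the transcription factor that drives many genes of this list, was at 0.66, 1.16 and 0.91 in LSC GFP+ and 0.41, 0.53 and 0.60 in LSC GFP-. The groups did not overlap, and the difference of 0.40 ± 0.21 (SE) did not pass (limma adjusted p = 0.753, 95% interval -0.08 to 0.87). It passed with the replicate block, with normexp background correction, with the mean over its probes and without LSC GFP+ replicate 1.

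Cdk1 itself was at 0.15, 0.23 and 0.46 in LSC GFP+ and 0.03, -0.18 and 0.34 in LSC GFP-. The groups overlapped, and the difference was 0.21 ± 0.21 (SE, limma adjusted p = 0.995, 95% interval -0.28 to 0.71). The differences of the other 7 genes of this role ran from -0.15 for Ccnb2, cyclin B2, to 0.39 for Cks1b, a small Cdk-binding protein. Cyclin A2, Ccna2, stood at 0.27 and Cks2 at 0.14. Cdc25b at -0.07, Ccnf, the F-box cyclin, at -0.02 and Cdca3, an adaptor in the breakdown of the Cdk1 inhibitor Wee1, at 0.0045 stood near 0, and none of the 7 passed.

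Top2a, the topoisomerase that untangles sister chromatids, was at 0.48, 0.40 and 0.28 in LSC GFP+ replicates 1 to 3 and at -0.06, -0.35 and -0.07 in LSC GFP- replicates 1 to 3. The groups did not overlap, and the difference was 0.54 ± 0.19 (SE), 1.46-fold (limma adjusted p = 0.468), with the call lost without replicate 2 of either group. Its promoter is the one printed above with the most motif matches. Mki67, the antigen by which dividing cells are stained, was at 3.72, 3.94 and 3.63 in LSC GFP+ and 3.55, 3.57 and 3.45 in LSC GFP-. There was again no overlap at this probe, although the other probe of Mki67 overlapped. The difference of 0.24 ± 0.19 (SE) was small next to its interval of -0.20 to 0.67 (95%, limma adjusted p = 0.949).

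**Figure D3:**
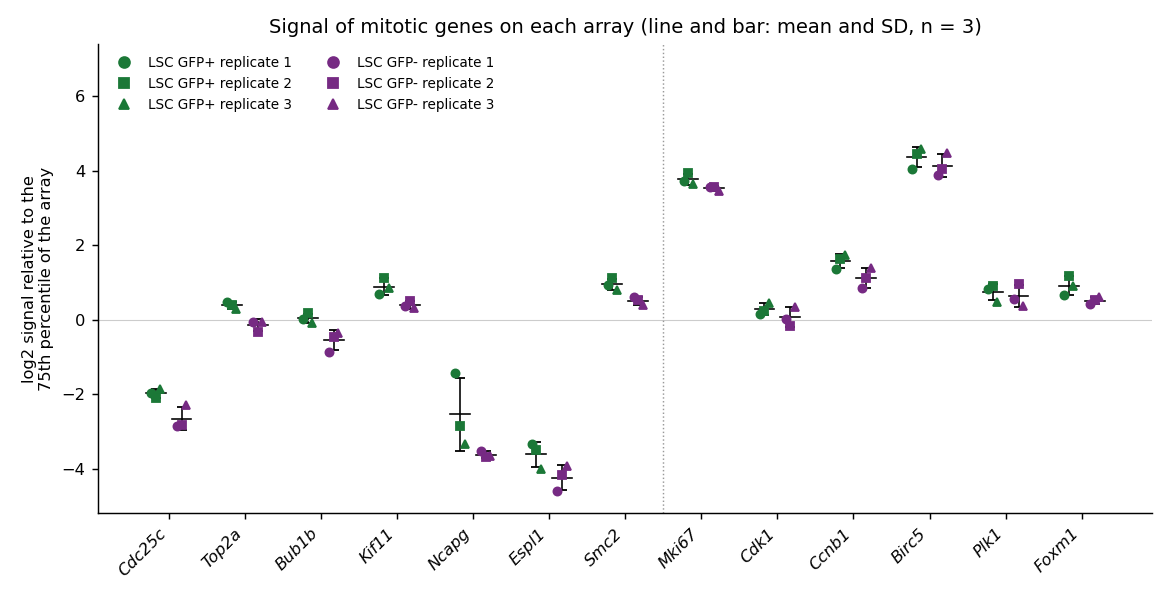
Log2 signal relative to the 75th percentile of each array on the y axis, for the 7 genes at an unadjusted p under 0.05 (left of the dotted line) and 6 genes shown whatever their values (right). Each point is 1 array, black lines and bars are the mean and SD of 3 arrays, and heights are not comparable between genes. Cdc25c, Top2a, Bub1b, Kif11, Ncapg, Smc2, Mki67 and Foxm1 do not overlap between the groups, and Plk1 does.

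None of the 4 mitotic kinases passed the test, and all 4 differences were positive. Plk1, which acts at centrosomes, kinetochores and the midbody, was at 0.82, 0.90 and 0.48 in LSC GFP+ and 0.57, 0.95 and 0.36 in LSC GFP-. The groups overlapped throughout, the difference was 0.11 ± 0.23 (SE, limma adjusted p = 0.996, 95% interval -0.42 to 0.64), and it was -0.022 without LSC GFP- replicate 3. Plk4, the kinase of centriole duplication, at 0.47 and Nek2, which separates centrosomes, at 0.41 did not overlap between the groups, and Aurka, the spindle pole kinase, had a difference of 0.21.

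In the chromosomal passenger complex, which corrects wrong attachments of chromosomes, 0 of the 3 genes tested passed at the brightest probe. Birc5, survivin, was at 4.05, 4.45 and 4.59 in LSC GFP+ and 3.87, 4.04 and 4.47 in LSC GFP- replicates 1 to 3. At this probe each LSC GFP+ sample was above its own number but the groups overlapped, with a difference of 0.24 ± 0.24 (SE, limma adjusted p = 0.996, 95% interval -0.33 to 0.80). The other probes of Birc5 had differences of 0.22 and 0.20, and within replicate 1 they stood at -0.11 and -0.08. The scaffold Incenp and Cdca8, borealin, had differences of 0.27 and 0.33. The second, dimmer probe of Cdca8 had one of 0.48 without overlap, at an unadjusted p under 0.05 (limma adjusted p = 0.595).

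Of the 5 genes of the spindle assembly checkpoint, 1 rose and all 5 differences were positive. Bub1b, BubR1, which blocks the anaphase-promoting complex until chromosomes are attached, was at 0.01, 0.17 and -0.08 in LSC GFP+ and at -0.86, -0.46 and -0.35 in LSC GFP-. All LSC GFP+ samples lay above all LSC GFP- samples, by 0.59 ± 0.21 (SE) on average (limma adjusted p = 0.486), and the call was lost without LSC GFP+ replicate 2 or without LSC GFP- replicate 1. The kinase Bub1, at 0.37, did not overlap between the groups either. The others were Bub3, which brings both to kinetochores, at 0.41, the kinase Ttk at 0.31 and Mad2l1, the Mad2 protein, at 0.07.

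At centromeres and kinetochores, 0 of 6 genes tested passed and all 6 differences were positive, with the median at 0.18. Of the Ndc80 complex, which grips the microtubule, Spc24 had a difference of 0.42, Ndc80 0.20, Spc25 0.13 and Nuf2 0.02. Cenpe, a kinetochore motor, at 0.22 was the only gene of these 6 without overlap, and Cenpa, the histone that marks centromeres, stood at 0.16. For 4 of these 6, Ndc80, Spc25, Nuf2 and Cenpa, the standard error was larger than the difference, as the plot of differences by role shows.

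Of 6 spindle motors and assembly factors tested, 1 rose and 5 had a positive difference. Kif11, the motor that pushes spindle poles apart, was at 0.68, 1.12 and 0.85 in LSC GFP+ and at 0.35, 0.50 and 0.30 in LSC GFP-. The groups did not overlap, and the difference was 0.50 ± 0.20 (SE), 1.41-fold (limma adjusted p = 0.577). The call was kept when LSC GFP+ replicate 1 was left out and lost when any other array was, or without a filter on dim probes. Kif4, a motor on chromosome arms, at 0.41 and Kif2c, which takes microtubule ends apart, at 0.34 did not overlap between the groups. The other probe of Kif2c did overlap. Nusap1, which bundles spindle microtubules, and Tpx2, which promotes their nucleation, both had a difference of 0.28. Hmmr, a microtubule-binding protein, had one of -0.07, with 0.38 within replicate 1, -0.62 within replicate 2 and 0.01 within replicate 3.

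None of the 7 genes of the central spindle and cytokinesis passed, and 6 had a positive difference. Ect2, which activates RhoA at the division plane, was at 0.30 without overlap and Kif20a, a central spindle motor, at 0.30 with overlap. Kif23 and Racgap1, which together form centralspindlin, were at 0.22 and 0.09, the bundler Prc1 at 0.16 and the ring scaffold Anln at 0.22. The motor Kif20b stood at -0.04.

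Of the 5 condensin subunits, 2 rose, all 5 differences were positive and 4 did not overlap between the groups. Over all genes tested, 3.55% rose, 48.6% had a positive difference and 6.76% had LSC GFP+ on top without overlap. With 5 genes these counts are a description. Ncapg was at -1.44, -2.86 and -3.33 in LSC GFP+ replicates 1 to 3 and at -3.52, -3.68 and -3.68 in LSC GFP-. LSC GFP+ replicate 1 was far above the rest, and the difference of 1.08 ± 0.44 (SE), 2.12-fold (limma adjusted p = 0.592), the widest of the list, was 0.53 without that array and 0.48 with normexp background correction, where it did not pass. Its call was also lost when LSC GFP+ replicate 2 or any of the LSC GFP- arrays was left out. The same held for the methods' t-test, no filter on dim probes and probes well above background on at least 1 array. Smc2, an ATPase of the condensin ring, was at 0.92, 1.11 and 0.81 in LSC GFP+ and at 0.60, 0.53 and 0.39 in LSC GFP-, an even shift with no overlap. Its difference was 0.44 ± 0.19 (SE), 1.36-fold (limma adjusted p = 0.630), and the call was lost whichever of the 6 arrays was left out. The call of Smc2 was also lost without a filter on dim probes and with probes well above background on at least 1 array. Its partner Smc4 and the subunit Ncaph, at 0.22 and 0.28, did not overlap between the groups, and Ncapd2 stood at 0.03.

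Of the 5 genes of the anaphase-promoting complex, its activators, securin and separase, 4 had a positive difference and 1, Espl1, rose, but it had entered the test through the LSC GFP+ arrays alone. Espl1, separase, was at -3.34, -3.51 and -4.01 in LSC GFP+ and at -4.61, -4.18 and -3.94 in LSC GFP-, where 2 of 3 arrays were well above background. The groups overlapped, since replicate 3 was nearly level. The difference was 0.62 ± 0.26 (SE, limma adjusted p = 0.620). It was 0.08 with normexp background correction, where its call was lost. The call was also lost with the replicate block and without replicate 1 or 2 of either group. The methods' t-test, limma with an intensity trend, no filter on dim probes and probes well above background on at least 1 array lost it too. The activators Fzr1 and Cdc20 had differences of 0.34 and 0.19 and the ubiquitin-conjugating enzyme Ube2c one of 0.35. Pttg1, securin, which holds separase inactive, had the lowest difference of the 54, -0.16, and was lower in LSC GFP+ within all 3 numbers, while its second probe stood at 0.03.

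**Figure D4:**
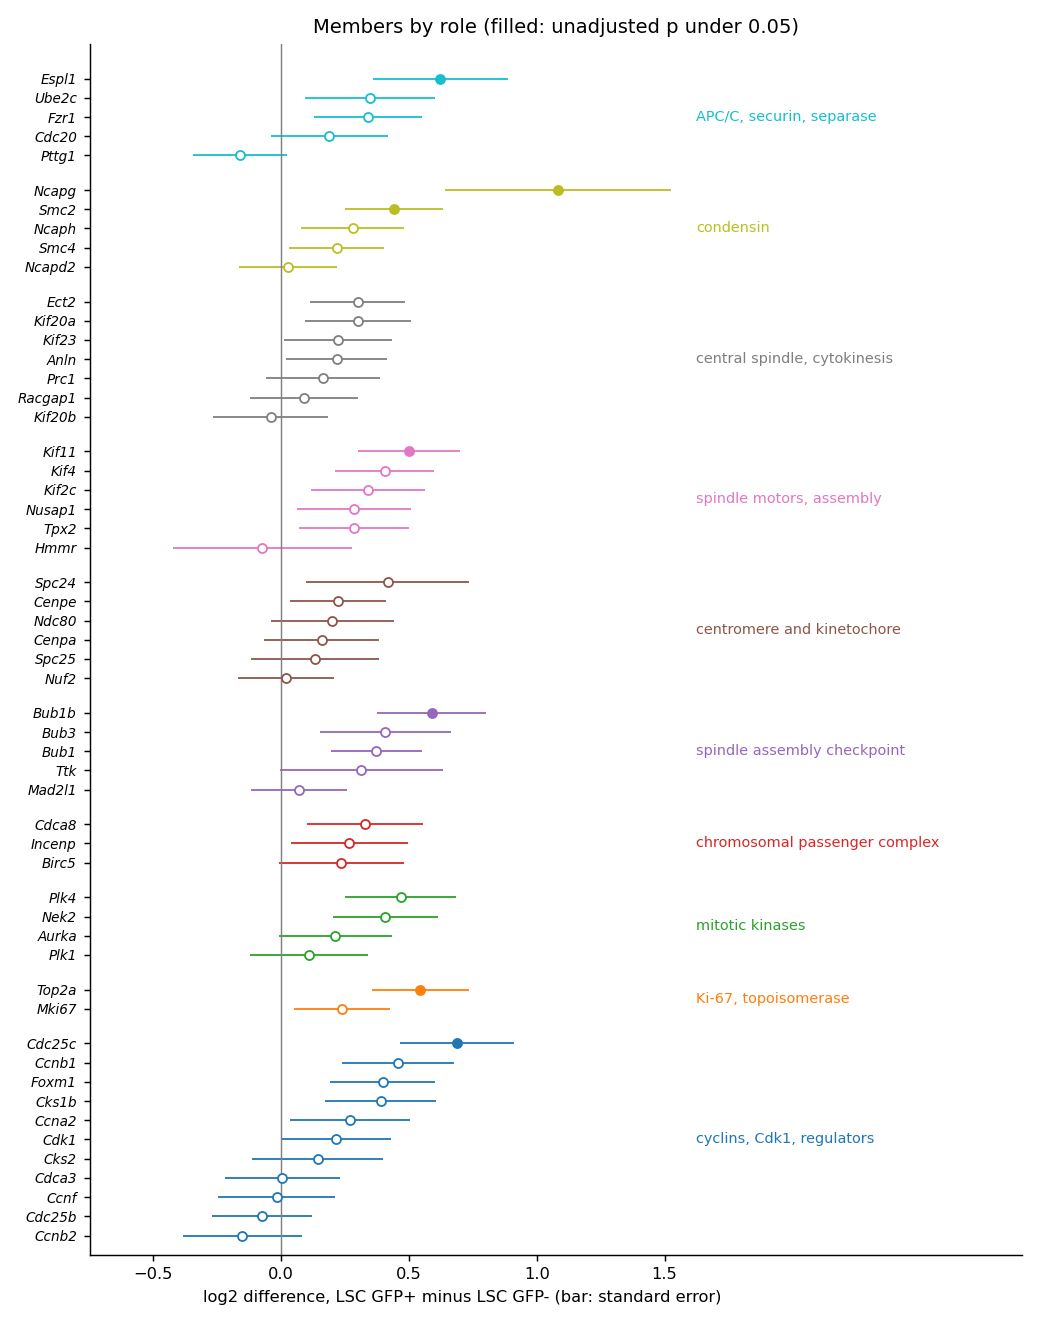
Log2 difference (LSC GFP+ minus LSC GFP-, x axis) with its limma standard error for the 54 genes tested, grouped and coloured by role. Filled points are the 7 genes at an unadjusted p under 0.05, from 0.44 for Smc2 to 1.08 for Ncapg. Most points lie right of 0, and Pttg1 (-0.16) and Ccnb2 (-0.15) lie farthest left.

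Where a gene had several probes they mostly pointed together: of 14 genes with 2 or more probes that passed, Pttg1 was the exception. For Ccnb1 the other probes had differences of 0.38 and 0.68, both without overlap, and for Foxm1 the other probe had one of 0.53. The second probes of Cdca8, at 0.48, and Racgap1, at 0.35, did not overlap between the groups either. Of these, the Ccnb1 probe at 0.68 and those of Foxm1 and Cdca8 were at an unadjusted limma p under 0.05. Their limma adjusted p-values were 0.440, 0.610 and 0.595. The other probe of Mki67, at 0.17, and that of Kif2c, at 0.40, overlapped between the groups. Within replicate 3 they stood at -0.05 and -0.14. The 60-base probes of 5 of the called genes lie, by the mm9 positions of the array design, at chr11:98855522-98855581 for Top2a, chr2:118466830-118466889 for Bub1b, chr19:37495755-37495814 for Kif11, chr5:46091679-46091738 for Ncapg and chr4:52501012-52501071 for Smc2. The exon under each was not analysed here.

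The remaining mitotic genes and the genes of DNA replication, which precedes mitosis, shifted the same way. Of 82 other mitotic genes tested, from 89 listed, 6 rose, 0 fell and 73 had a positive difference, with a median of 0.20. The 6 were Gsg2, the haspin kinase that marks centromeres, at 0.81 ± 0.20 (SE, limma adjusted p = 0.237), Dlgap5, which stabilises kinetochore fibres, at 0.65, the spindle motor Kif15 at 0.64, the spindle protein Ckap2l at 0.55, the mitotic kinase Pbk at 0.54 and Depdc1b at 0.51. Of 50 DNA replication genes, 6 rose, 0 fell and 47 had a positive difference, with a median of 0.28. They were Orc1, which marks origins, at 0.71 ± 0.27 (SE, limma adjusted p = 0.529), Rpa1, which coats single strands, at 0.63, Pola2 of the primase-polymerase at 0.56, Dbf4, which activates the Cdc7 kinase, at 0.53, Cdt1, which licenses origins, at 0.50 and Dnmt1, which copies DNA methylation, at 0.45. These 12 genes have adjusted p-values of 0.237 or more. In the same fit 3.55% of all genes rose and 4.44% fell. With the replicate block the counts were 21 and 14, where 6.67% of all genes rose. They fell to 1 and 1 without LSC GFP- replicate 1, to 3 and 0 without LSC GFP- replicate 2 and to 2 and 3 without LSC GFP+ replicate 2. In these fits 2.65%, 2.35% and 2.43% of all genes rose, so that 1 of 82, 1 of 50 and 0 of 50 lay below that share. The count was 11 without LSC GFP+ replicate 1 for the mitotic genes (background 3.71%). It was 2 without LSC GFP+ replicate 3 for the replication genes (background 3.05%).

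The samples of a group were not alike in these genes. The median over the 54 genes of the signal minus each gene's own mean over the 6 arrays was -0.01, 0.22 and 0.20 in LSC GFP+ replicates 1 to 3 and -0.24, -0.19 and 0.03 in LSC GFP- replicates 1 to 3. LSC GFP- replicate 3, with 31 of 54 genes above their own mean, thus stood above LSC GFP+ replicate 1, with 25 of 54. The other mitotic genes (0.025 against 0.0087) and the replication genes (0.06 against -0.04) had the same order of these samples.

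**Figure D5:**
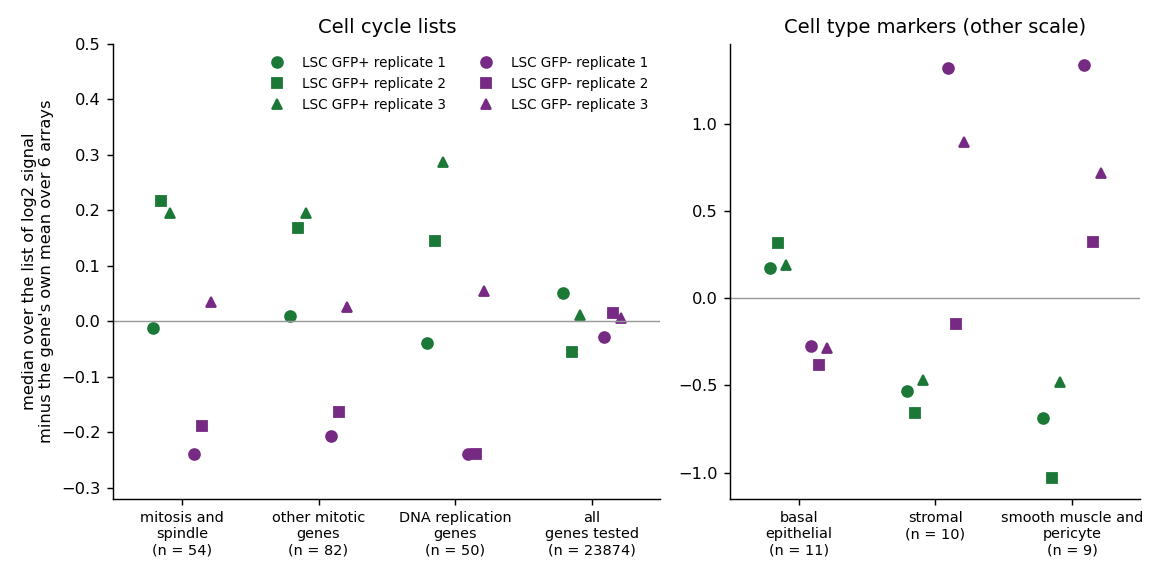
Median over each list of log2 signal minus the gene's own mean over 6 arrays (y axis), 1 point per array, for the cell cycle lists and all genes (left) and for cell type markers (right, on a wider scale). In the 3 cell cycle lists LSC GFP- replicate 3 lies above LSC GFP+ replicate 1 and below the 2 other LSC GFP+ arrays, while basal markers are higher and smooth muscle markers lower on all 3 LSC GFP+ arrays.

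Markers of cell types moved between the groups as well, counted at an unadjusted p under 0.05. Over all genes tested 3.55% rose, 4.44% fell and the median difference was -0.0094. After adjustment 0 of the markers below passed. Of 11 basal epithelial markers tested, 6 rose and 0 fell (median difference 0.52), Krt5 by 0.70 and Krt14 by 1.18 among them, and both keratins were well above background on all 6 arrays. Of 10 stromal markers 6 fell and 2 rose (Dcn and Fbln1), with a median of -1.20. Of the 6, Twist1 was well above background on 0 and Pdgfra on 2 of the 3 LSC GFP+ arrays, so both had passed the filter through LSC GFP- alone. The summed level of the stromal markers was 4.66 to 5.01 in LSC GFP+ and 4.63 to 6.04 in LSC GFP-. Without Dcn, left out after its values were seen, the sum was 3.76 to 4.04 in LSC GFP+ and 4.38 to 5.885 in LSC GFP-. Of 9 smooth muscle and pericyte markers 7 fell and 0 rose, with a median of -1.51. Their summed level, 8.65 to 8.97 in LSC GFP+ and 8.55 to 8.99 in LSC GFP-, was carried by the probe of Mcam. Without Mcam, also left out after its values were seen, it was 2.80 to 3.40 in LSC GFP+ and 4.37 to 5.31 in LSC GFP-. Of endothelial, leukocyte and glial markers, 6 of 9 tested in each, 0 passed, and the endothelial markers Cdh5, Tie1 and Emcn did not reach the filter. The part of these markers in the mitotic differences was not tested. Within replicates 1, 2 and 3 the median differences were -1.91, -0.64 and -1.29 for stromal markers, -2.09, -1.36 and -1.22 for smooth muscle markers and 0.38, 0.63 and 0.55 for basal markers, beside 0.25, 0.41 and 0.15 for the mitotic genes.

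The genes of the sorting markers did not pass the test between the groups. Ly6a, which encodes Sca-1, differed by -0.36 ± 0.46 (SE, limma adjusted p = 0.996) and Itga6, which encodes CD49f, by 0.25 ± 0.22 (SE, limma adjusted p = 0.975), and Ptprc and Pecam1, markers of the excluded lineages, did not pass. The probe of Inpp5d stayed near background on all 6 arrays. Over the 6 arrays, 36651 to 42123 of 55681 probes were well above background, and over all genes 848 rose and 1059 fell at an unadjusted p under 0.05 (961 and 802 after scaling by the array median).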

How the data were processed

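Total RNA of 6 sorted samples was amplified (Ovation Pico WTA), labelled with Cy3 and hybridised to SurePrint G3 Mouse 8x60K arrays on 1 slide, read in 1 scan. The deposited values are spot intensities from Feature Extraction (version 11.0.1.1 in the file headers, 10.7.3.1 in the submitters' processing notes), which the authors left background-subtracted and not normalised between arrays. A table of the whole series holds the same intensities within 0.496% and served as an alternative. The 0 or 1 marks of the scanner software (well above background, outlier) were also used as deposited.

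Intensities were taken to log2, less the 75th percentile of the same array. Outlier spots were dropped and the 59305 spots averaged to 55681 probes. Kept were 37005 probes that the software marked well above background on every array of either group. LSC GFP+ and LSC GFP- were compared with limma 3.58.1 in R 4.3.3 (lmFit, eBayes, two-sided) over all kept probes, with Benjamini-Hochberg adjustment. A gene is represented by its kept probe of highest mean signal. Both the members and the lists were chosen with earlier results of these data known, so the counts are descriptions. All genes of the list were accounted for, values per array were given for those at an unadjusted p under 0.05 and for 8 genes given whatever their values (Mki67, Top2a, Cdk1, Ccnb1, Aurkb, Birc5, Plk1 and Foxm1), and of the other mitotic and replication genes the 6 of smallest p were named. An exact permutation test of 3 against 3 cannot go below p = 0.1 and was not used. The precision is limited by the number of arrays. Fitting was tested on simulated data.

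Replicate numbers come from the sample titles. Deviations from the group means correlated between samples of the same number (0.43, 0.28 and 0.67). Between different numbers the correlations ran from -0.55 to 0.22, the highest for LSC GFP+ replicate 1 with LSC GFP- replicate 2. Samples of a number may thus be pairs, but the comparison reported is the fit without pairing. The fit with the number as a block is an alternative. The alternatives were 12 other settings and leaving out each array. Array names and positions are those of the design (mm9), and promoters came from RefSeq (GRCm38.p6) by symbol. The luminal marker list and some single markers are not reported here.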

Additional observations from a re-analysis of the deposited data

How the results depend on the processing

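The direction of the list did not depend on the processing: under each of 12 other settings and with each array left out, the number of mitotic genes with a positive difference (46 to 50) and the median difference (0.20 to 0.35) kept their direction, and 0 of the genes fell or passed after adjustment. With the replicate block, of the genes given by array, Espl1 lost its call and Ccnb1 and Foxm1 gained one. The count that rose moved more. It was 3 of 57 without a filter on dim probes and 4 of 56 with probes well above background on at least 1 array. Of the 54, it was 10 with normexp background correction, 10 with quantile normalisation, 13 with the replicate block, and 1 to 10 with an array left out. The other mitotic genes that rose numbered 14 with normexp background correction, 10 with quantile normalisation, 15 with the methods' t-test (1 fell), 21 with the replicate block, and 1 to 11 with an array left out. The DNA replication genes that rose numbered 11 with normexp, 3 without a filter, 3 with probes well above background on at least 1 array, 10 with the methods' t-test, 14 with the replicate block, and 0 to 9 with an array left out. Over all genes, 1593 rose and 1902 fell with the replicate block, and with an array left out 560 to 910 rose and 741 to 1705 fell. The share of all genes that rose thus moved as well, from 3.55% in the main fit to 6.67% with the replicate block. It was 3.81% with normexp, 4.39% with quantile normalisation and 4.52% with the methods' t-test, where 3.27% fell. Without a filter it was 2.44%, with probes well above background on at least 1 array 2.79%, and with an array left out 2.35% to 3.81%. The difference of Plk1 ran from -0.022 without LSC GFP- replicate 3 to 0.27 without LSC GFP- replicate 2. The cause of these changes was not tested. Cdc25c, Top2a and Bub1b passed in 16 of 18 alternatives each, Kif11 in 12, Smc2 in 10, Ncapg in 9 and Espl1 in 7 of 17. The value of Espl1 is limited by its signal, which cleared background on 2 of the LSC GFP- arrays.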
